A study of Mus musculus with 4 samples.

Results

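The 41 genes described here are mouse genes known to be induced by type I interferon, named one by one in a fixed list and all present among the 22631 genes counted in this study. They were followed gene by gene, and as a sum per cell, across the immune cells of MC38 tumours with and without an agonist antibody to CD40. MC38 is a mouse colon carcinoma line. CD40 is a receptor of dendritic cells, macrophages and B cells, and an agonist antibody stands in for the T cell ligand that normally engages it. MC38 cells were placed in the flank of mice that carry the IL-12p40-IRES-EYFP reporter, in which cells that make the p40 chain of interleukin-12 also make a yellow fluorescent protein. After 7 days the mice received 5 mg/kg of the antibody into the peritoneum or nothing, and tumours were taken 2 days later, digested and sorted for CD45+ cells with 7AAD to mark dead cells. Cells were captured in droplets with barcoded beads (inDrops) and their RNA was sequenced, with levels counted in unique molecular identifiers (UMIs), 1 for each mRNA molecule captured. The data hold 1 untreated tumour and 2 anti-CD40 tumours, named here anti-CD40 tumour 1 and anti-CD40 tumour 2. All 3 carry the reporter, the untreated mouse is not labelled as having received a control antibody, and the age of the mice is not stated in the sources.

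Type I interferons bind a receptor found on nearly all cells, and its kinases activate a transcription factor complex that holds Stat2 and Irf9. The complex binds interferon stimulated response elements in promoters and turns on genes that sense viral RNA, block its translation, degrade it, or amplify the response. Irf7, Irf9 and Stat2 are both products and parts of the pathway, and Usp18 is one of its brakes. Interferon gamma and direct sensing of nucleic acids induce many of the same genes, so their level alone does not name the ligand.

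Some of the promoters carry the sequence the pathway acts through, and 5 with a match are shown. They were chosen as members from both ends of the class pattern described below. Isg15, Rsad2 and Oas3 were higher in neutrophils, and Bst2 and Phf11b were higher in other myeloid cells. The core of the response element was searched on both strands as GAAA, any 2 bases and GAAA, in the window from 250 bases before to 50 bases after each RefSeq gene start (assembly GRCm38.p6). It was present in 14 of the 33 members with a window (42.4%), against 3.99% of all 27025 genes with one. The sequences run 5′ to 3′ on the minus strand, on which all 5 genes lie, and capitals mark the matches.
Isg15, chr4:156200855-156200916: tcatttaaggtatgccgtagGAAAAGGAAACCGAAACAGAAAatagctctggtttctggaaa
Rsad2, chr12:26456543-26456592: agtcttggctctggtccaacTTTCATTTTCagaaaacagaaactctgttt
Oas3, chr5:120777705-120777754: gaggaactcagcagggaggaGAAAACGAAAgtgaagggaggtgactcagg
Bst2, chr8:71537567-71537622: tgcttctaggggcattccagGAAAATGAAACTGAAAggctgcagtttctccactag
Phf11b, chr14:59341351-59341400: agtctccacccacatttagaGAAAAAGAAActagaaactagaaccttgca
Isg15 held 3 overlapping matches from 78 to 57 bases before its start. Bst2 held 2 overlapping matches from 130 to 115 bases before its start. In Rsad2, at 120 to 111 bases before the start, the match lies on the opposite strand and is printed as its reverse complement. Single matches stood 75 to 66 bases before the Oas3 start and 50 to 41 bases before the Phf11b start. The gamma activated site, searched as TTCNNNGAA, was present in 5 of the 33 members (15.2%) and in 9.55% of all genes. Matches of the motifs can overlap, since both hold GAA, and a match is a description of the letters, not of factor binding.

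In all, 4440 cells held 3961141 UMIs, of which 44963 came from the 41 members. The untreated tumour gave 1399 cells, anti-CD40 tumour 1 gave 1226 and anti-CD40 tumour 2 gave 1815. The median cell was shallower in the untreated tumour (433 UMIs) than in the treated ones (979 and 865 UMIs). The tumours were spread over 12 libraries in 4 sequencing pools, with no cell barcode shared between libraries. The untreated tumour and anti-CD40 tumour 1 share pools 1 and 2, and anti-CD40 tumour 2 is alone in pools 3 and 4, so for that tumour pool and tumour cannot be told apart. Cell classes are those of the authors' annotation, and the neutrophil class held all 8 neutrophil markers searched (419, 1066 and 693 UMIs per 10,000 in the untreated tumour, tumour 1 and tumour 2). T cell and NK cell markers summed to 0 there in the untreated tumour. Monocytes, macrophages and dendritic cells form 1 class, called other myeloid cells here.

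Neutrophils carried the highest summed level of the members in every tumour. Members made up 224 of every 10,000 neutrophil UMIs in the untreated tumour (95% exact Poisson interval 205 to 244, 49 cells), 224 in anti-CD40 tumour 1 (220 to 227, 700 cells) and 217 in anti-CD40 tumour 2 (210 to 224, 215 cells). The 3 neutrophil intervals overlap. In other myeloid cells the level was 90.8 in the untreated tumour (88.4 to 93.3, 1136 cells), 80.0 in tumour 1 (77.8 to 82.3, 448 cells) and 85.9 in tumour 2 (84.4 to 87.4, 1330 cells). Neutrophils therefore stood 2.47, 2.80 and 2.53 times above the other myeloid cells of the same tumour. T cells held 82.8, 71.8 and 60.6 member UMIs per 10,000, and NK cells 37.7, 25.6 and 32.2. The intervals cover counting error only. Classes were drawn by the authors from the same cells, so the differences between classes are descriptions with no test.

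**Figure D1:**
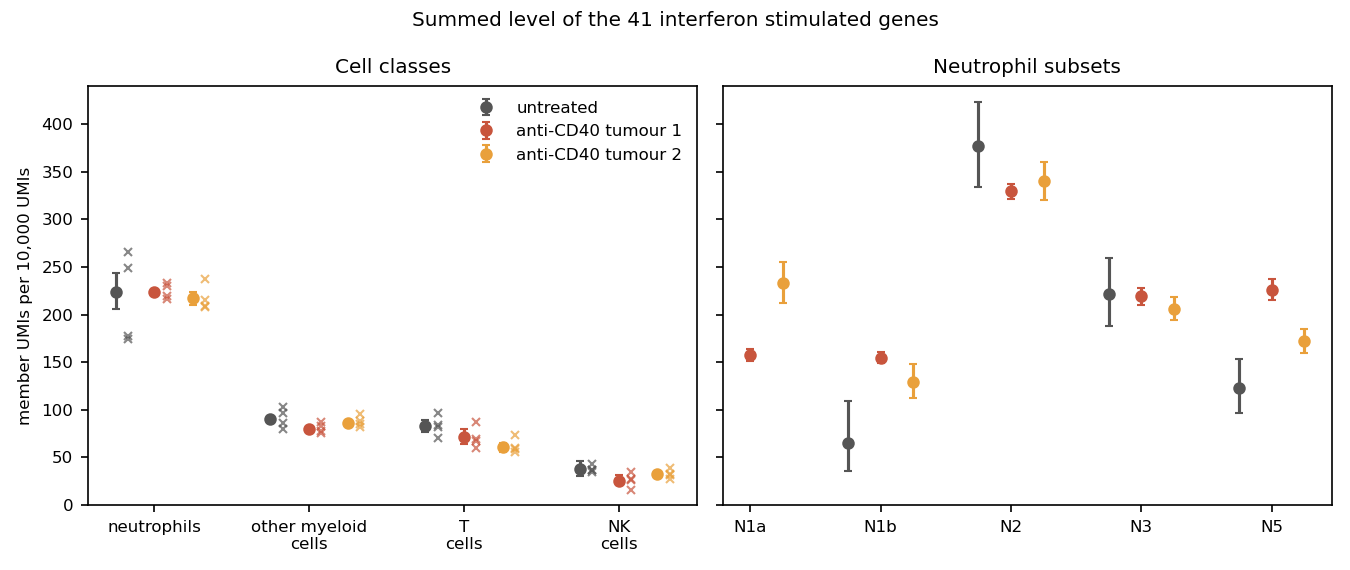
Member UMIs per 10,000 UMIs (vertical axis) by cell class (left) and neutrophil subset (right), with dots for whole tumours, bars for 95% Poisson intervals and crosses for single libraries. Neutrophils of all 3 tumours sit at 217 to 224, above the other classes, and among the subsets N2 is highest in each tumour.

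Single libraries also had neutrophils on top. The neutrophil level ranged from 174 to 266 over the untreated libraries, 217 to 233 over those of tumour 1 and 207 to 237 over those of tumour 2. Other myeloid cells ranged from 79.8 to 103, from 76.1 to 87.4 and from 81.5 to 95.4. No neutrophil library overlapped a library of other myeloid cells, while treated and untreated libraries overlapped within both classes.

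Over all cells of a tumour the level was 91.8 member UMIs per 10,000 untreated, 152 in tumour 1 and 93.1 in tumour 2. The high value moved with the share of neutrophils, which were 3.5% of untreated cells, 57.1% of cells in tumour 1 and 11.8% in tumour 2. Neutrophils supplied 8.10%, 75.5% and 21.6% of the member UMIs of those tumours.

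The neutrophil level was spread over most cells. After each cell was thinned to 300 UMIs, 41, 667 and 200 neutrophils and 855, 419 and 1263 other myeloid cells remained in the untreated tumour, tumour 1 and tumour 2. At least 3 member UMIs were seen in 70.7%, 80.2% and 72.5% of the neutrophils, and in 40.5%, 37.2% and 42.2% of the other myeloid cells. NK cells, the class with the lowest level, gave 31.4%, 7.41% and 11.5%. Cells with 10 or more member UMIs were 26.8%, 22.6% and 23.5% of neutrophils against 2.81%, 2.15% and 1.43% of other myeloid cells. Without thinning, the neutrophil share exceeded that of other myeloid cells by 19.98, 15.2 and 6.07 percentage points, since deeper cells of both classes pass the minimum.

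**Figure D2:**
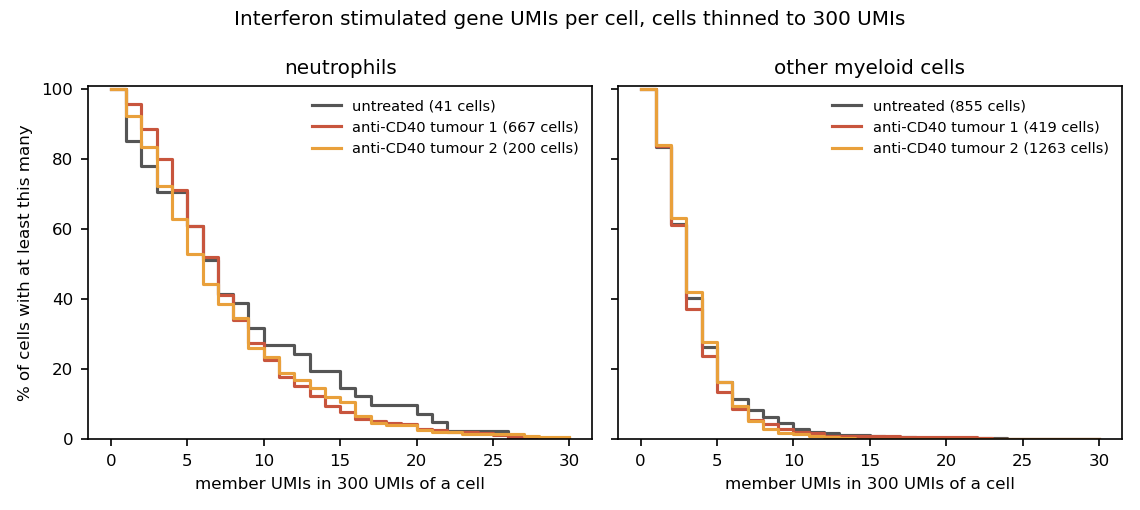
Percent of cells (vertical axis) with at least a given number of member UMIs (horizontal axis) after thinning to 300 UMIs, for neutrophils and other myeloid cells, with 1 line for each tumour. Neutrophils reach further right in every tumour, with 22.6% to 26.8% of them at 10 or more member UMIs.

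Cells of the same class were not alike. The mean neutrophil held 7.24, 6.74 and 6.41 member UMIs after thinning, and the variance was 5.81, 4.12 and 4.95 times the mean. Other myeloid cells held 2.73, 2.53 and 2.57, with a variance 3.13, 2.82 and 1.92 times the mean. Between 4.05% and 14.6% of neutrophils held no member UMI.

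Gene by gene, 28 members had their highest mean level in neutrophils, 8 in other myeloid cells, 3 in T cells and 2 in NK cells. Levels of single genes are given as CPM, the UMIs of the gene scaled to the same UMI total in every class. Inside that order, 21 of the 28 neutrophil members did not overlap the next class over the 3 tumours. Of the 6140 genes with at least as many UMIs as the lowest member, 22.7% were highest in neutrophils and 9.15% were so without overlap. Neutrophils stood above other myeloid cells in all tumours without overlap for 23 of the 41 members and below for 8, and 10 overlapped. Among the same 6140 genes, 13.9% stood above and 47% below.

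**Figure D3:**
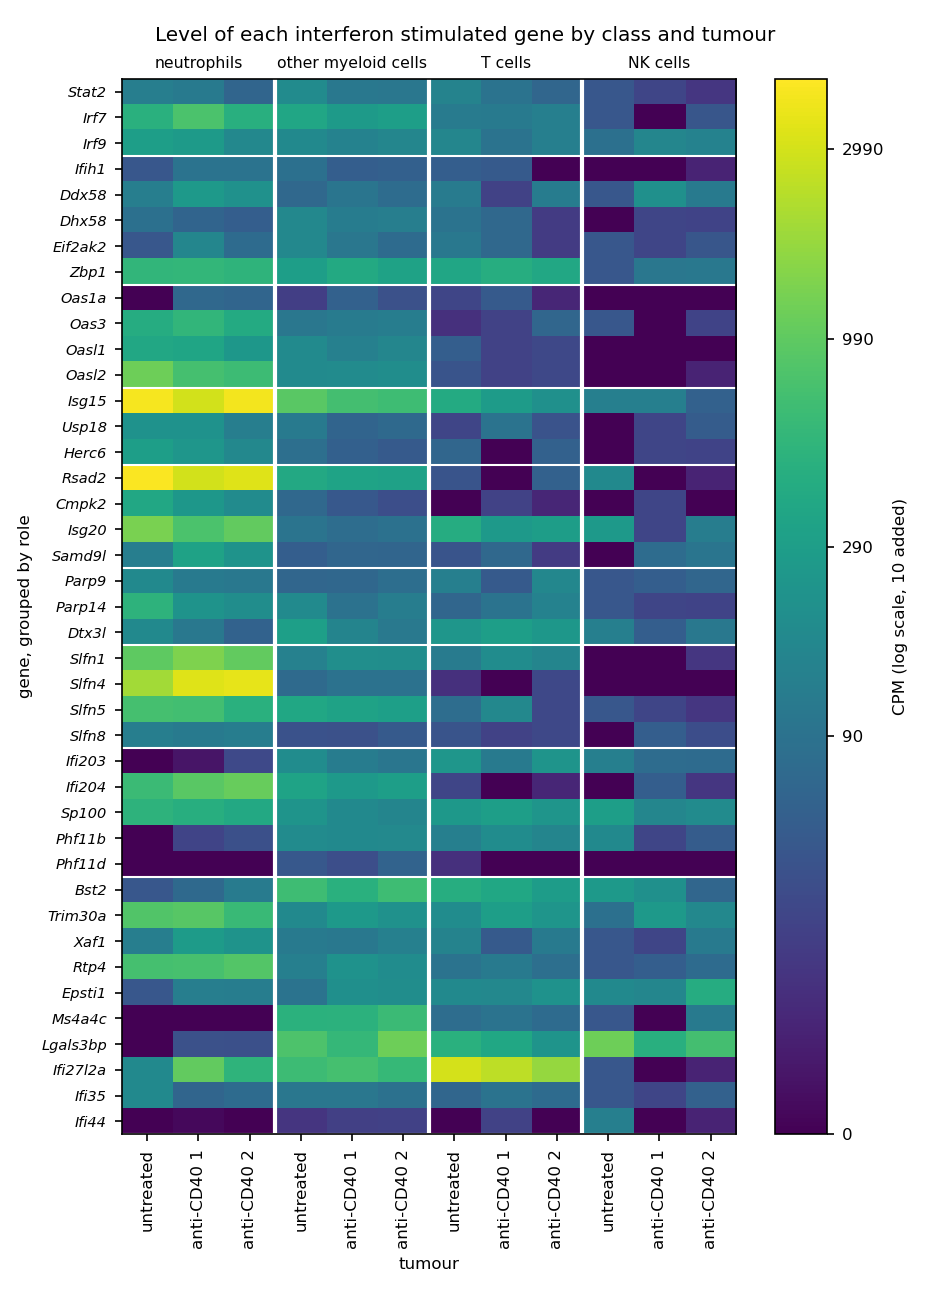
Level of each of the 41 members (rows, grouped by role) in each class and tumour (columns), coloured by CPM on a log scale after 10 was added. Slfn4, Rsad2 and Isg15 are brightest in neutrophils, and Ms4a4c, Lgals3bp and Bst2 are dark there and bright in other myeloid cells.

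Among the members higher in neutrophils, Slfn4 had the largest ratio to other myeloid cells. Slfn4, a Schlafen of myeloid cells, measured 1918 CPM in untreated neutrophils, 3360 in tumour 1 and 3558 in tumour 2. Its level in other myeloid cells was 71.9, 89.0 and 90.7 CPM. With the tumours pooled this is 3054 against 226 UMIs and a ratio of 39.0 (95% counting interval 34.0 to 44.8). Single-gene ratios between these 2 classes all pool the tumours, which weigh unequally in them. Tumour 1 gave 700 neutrophils and 448 other myeloid cells, and tumour 2 gave 215 and 1330. A pooled ratio can therefore differ from that within each tumour, and its interval covers counting error only. Slfn1 measured 980, 1372 and 1020 CPM in neutrophils, 7.25 times its pooled level in other myeloid cells (6.51 to 8.09). Slfn5 and Slfn8 were 2.05 and 2.78 times higher in neutrophils. The Schlafens together made up 37.5, 55.5 and 51.7 of every 10,000 neutrophil UMIs and 6.12, 6.51 and 6.27 in other myeloid cells.

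The enzymes that act on nucleotides and RNA were also higher in neutrophils. Rsad2, or viperin, makes a chain-terminating nucleotide, and measured 4346 CPM in untreated neutrophils, 2921 in tumour 1 and 3308 in tumour 2. Other myeloid cells held 391, 332 and 322 CPM of Rsad2, and the pooled ratio was 8.94 (8.28 to 9.65). Isg20, a 3′ exonuclease, measured 1321, 787 and 1031 CPM in neutrophils, with a pooled ratio of 9.78 (8.42 to 11.4). Cmpk2, a mitochondrial nucleotide kinase that neighbours Rsad2, had a ratio of 5.46, and Samd9l, a restriction factor of viral translation, one of 4.96. All 4 genes of this role stood above other myeloid cells without overlap.

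Isg15 is a ubiquitin-like protein that is joined to other proteins. It measured 4133, 2984 and 4044 CPM in neutrophils and 944, 708 and 664 in other myeloid cells, a pooled ratio of 4.37 (4.13 to 4.64). Herc6, the mouse ligase for Isg15, had a ratio of 4.02, and Usp18, which removes Isg15 and also restrains the receptor, one of 2.55. Of the oligoadenylate synthetases, which activate an RNase that cuts RNA, Oas3 was 4.39 times and Oas1a 1.78 times as high in neutrophils. Their relatives Oasl2 and Oasl1 stood at 3.99 and 2.15 times. Oas1a rested on 60 neutrophil UMIs.

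The regulators differed less. Irf7, the factor that amplifies interferon production, measured 469, 790 and 458 CPM in neutrophils and 360, 272 and 300 in other myeloid cells. Its pooled ratio was 2.34 (2.11 to 2.60), and most of the pooled neutrophils came from tumour 1, where its neutrophil level was highest. Irf9 had a ratio of 1.61, and Stat2 was 1.16 times higher in other myeloid cells, with an interval from 0.920 to 1.48 that includes 1. Among the sensors, Ddx58 (RIG-I) was 3.05 times higher in neutrophils, Zbp1 1.63, Ifih1 (MDA5) 1.5 and Eif2ak2 (the kinase PKR) 1.38. Dhx58, the regulator of those sensors known as LGP2, was 2.20 times higher in other myeloid cells. Exons of Irf7, Irf9 and Dhx58 overlap those of a neighbouring gene (Phrf1, Rnf31 and Dhx58os), so their counts are uncertain, as for 16 members in all.

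The 8 members that were lower in neutrophils were Ifi44, Ifi203, Dhx58, Bst2, Phf11b, Phf11d, Ms4a4c and Lgals3bp. Ms4a4c, a membrane protein, had 0 UMIs in neutrophils against 1487 in other myeloid cells, where it measured 486, 494 and 630 CPM. Against a floor of 3 UMIs over all neutrophils (3.30 CPM) this is at least 172-fold higher in other myeloid cells. Phf11d also had 0 neutrophil UMIs, against 133, and was at least 15.4-fold higher. Lgals3bp, a secreted glycoprotein, measured 816, 574 and 1149 CPM in other myeloid cells, 27.7 times its neutrophil level (19.5 to 40.9). Bst2, or tetherin, which holds budding virus at the membrane, measured 663, 477 and 665 CPM, 7.96 times its neutrophil level (6.27 to 10.2). Ifi203 was 13.9 times (6.98 to 32.5) and Phf11b 6.49 times (4.30 to 10.2) higher in other myeloid cells. Ifi44 had 1 UMI against 55, a ratio of 19.1 (3.28 to 767). The response element core was present in 7 of 17 members above in neutrophils that have a window, in 3 of 7 below and in 4 of 9 that overlap.

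The PYHIN genes, which encode DNA-binding proteins, thus split: Ifi204 measured 639, 925 and 1078 CPM in neutrophils, 3.19 times its level in other myeloid cells, while Ifi203 was lower there. Ifi27l2a, a small membrane protein, was spread over 3 classes, with 170, 1016 and 527 CPM in neutrophils, 653, 730 and 596 in other myeloid cells, and 3017, 2425 and 1692 in T cells. Of these classes T cells had the highest Ifi27l2a level in every tumour.

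Within neutrophils, the subset the authors call N2 had the highest member level in every tumour, leaving out N4, which had 4 cells in all. It held 377 member UMIs per 10,000 in the untreated tumour (334 to 424, 14 cells), 329 in tumour 1 (196 cells) and 340 in tumour 2 (44 cells). N3 stood at 222, 219 and 206, N5 at 123, 226 and 172, and N1b at 65.3, 155 and 129. N1a had no cells in the untreated tumour and measured 158 and 233 in the treated ones (128 and 16 cells). The untreated neutrophils outside N2 were 35 cells in all, so the untreated values of N3, N5 and N1b rest on few cells. N2 made up 28.6%, 28.0% and 20.5% of neutrophils and 53.0%, 43.5% and 30.0% of their member UMIs. Without N2 the neutrophil level was 154, 179 and 188, which is still above other myeloid cells in each tumour.

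Of the 35 members tested in neutrophils, 25 were highest in N2 in tumour 1, 23 in tumour 2 and 16 in both, against 17%, 18.3% and 6.16% of the 2713 genes tested there. N2 stood above N1b in both treated tumours for 32 of these members and N1b above N2 for 0, against 28.1% and 24.1% of the genes. The subsets were drawn from the same cells, so these are descriptions. In N1b of tumour 2 several members, such as Usp18 and Stat2, had 0 CPM. Isg15 measured 4827 and 6245 CPM in N2 of tumours 1 and 2, and 1887 and 1147 in N1b. Ifi27l2a showed a wide gap, with 1457 and 1152 CPM in N2 and 151 and 65.4 in N5. Rsad2 did not follow N2 alone: in N5 it measured 7271 and 4314 CPM, and in N2 4575 and 5032. Slfn4 was shared with N1a, at 4461 and 4729 CPM in N2 and 3348 and 5193 in N1a.

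No member passed the test for a change after anti-CD40 in neutrophils. The test was edgeR's quasi-likelihood test on UMIs summed per tumour, 1 untreated against 2 treated tumours with 1 residual degree of freedom, at a Benjamini-Hochberg adjusted p of 0.05 over all genes tested. It called 0 of the 35 members tested, beside 0.442% of the 2713 genes tested (0.405% higher and 0.0369% lower), and DESeq2 also called 0. At an unadjusted p under 0.05 there was 1 member with edgeR (10.9% of all genes tested) and there were 2 with DESeq2 (3.43% of all genes). With 1 untreated tumour, the p-values measure only the spread between the 2 treated tumours, which also differ in pool. In neutrophils, T cells and NK cells the typical gene took its spread from a value shared over genes. In sums, fewer expressing cells and less RNA per cell cannot be told apart. Untreated neutrophils were 49 cells, in which 1 UMI is worth 42.6 CPM.

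In CPM, both treated tumours were above the untreated one for 13 of the 35 members and both below for 17, against 32.3% and 51.3% of all genes tested. The median log2 change was 0.40 over these members and 0.29 over all genes tested. With plain library sizes the medians were -0.16 and -0.28, so the scaling sets the sign of both. The members with the most neutrophil UMIs lay on both sides. Slfn4 measured 1918 CPM untreated and 3360 and 3558 treated (log2 change 1.43, SE 0.74, edgeR adjusted p = 0.459). Isg15, at 4133 CPM untreated and 2984 and 4044 treated, had a log2 change of 0.35 (SE 0.69), positive through the scaling although both treated CPM values were lower. Rsad2 likewise had 0.10 (SE 0.68).

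Ifi27l2a had the smallest adjusted p of the members in neutrophils. Its 170 CPM in the untreated tumour came from 4 UMIs and compared with 1016 and 527 CPM in the treated tumours (log2 change 2.74, SE 0.91, edgeR adjusted p = 0.177). Epsti1, an interferon-induced gene first named in epithelial and stromal cells, rested on 1 untreated UMI and stood at 42.6, 125 and 122 CPM (log2 change 2.08, SE 1.32). Oas1a had 0 UMIs untreated and 68.7 and 63.7 CPM treated, below the 128 CPM that 3 UMIs would give there, so no fold is given. The most negative values among members on the same side in both treated tumours were those of Ifi35 (170, 63.1 and 75.3 CPM), Parp14 (511, 222 and 191 CPM) and Dtx3l (170, 107 and 57.9 CPM). Their log2 changes of -0.76 (SE 1.00), -0.73 (SE 0.72) and -0.43 (SE 0.97) did not pass the test. Neutrophil markers (419, 1066 and 693 UMIs per 10,000) and mitochondrial transcripts (79.7, 26.7 and 48.8) also differed between these neutrophil sums, and their part in the values was not tested.

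Other myeloid cells, with 1136 untreated cells, gave tighter values. Again 0 of 41 members passed edgeR's test, beside 0.409% of 7099 genes tested (0.169% higher and 0.239% lower), and DESeq2 called 0. At an unadjusted p under 0.05 edgeR had 3 members (9.2% of all genes) and DESeq2 had 1 (2.21% of all genes). Both treated tumours were above the untreated one for 14 members and below for 20, against 34.8% and 37.1% of all genes, and the median log2 change was -0.09 against 0.02. Isg15 measured 944, 708 and 664 CPM (log2 change -0.44, SE 0.39), and Rsad2 391, 332 and 322 CPM (-0.24, SE 0.38).

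**Figure D4:**
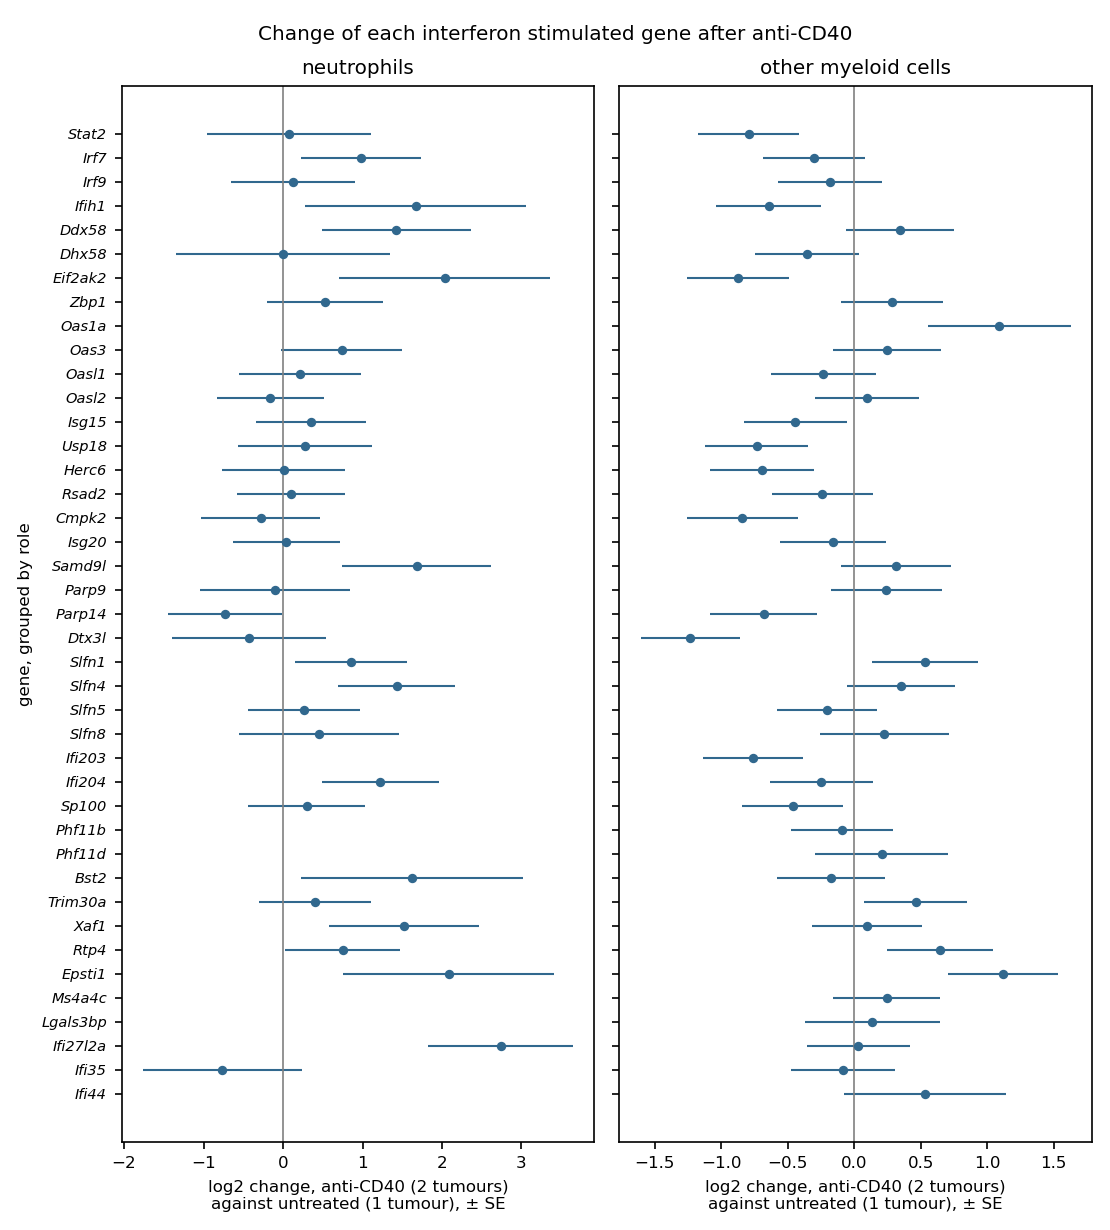
Log2 change after anti-CD40 (horizontal axis, with SE) of each member tested, by role, in neutrophils and in other myeloid cells. The panels differ in scale, most neutrophil bars are wider than those of other myeloid cells, Oas1a is left out of the neutrophil panel because the untreated tumour had 0 UMIs, and no member passed the test in either class.

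Epsti1 had the largest positive and Dtx3l the most negative log2 change among the members of this class. Epsti1 measured 91.2 CPM in the untreated tumour and 200 and 191 in the treated ones (log2 change 1.12, SE 0.41, edgeR adjusted p = 0.407). It was the 1 member whose 8 treated libraries all lay above the 4 untreated ones, at 142 to 254 and 152 to 222 against 55.4 to 124 CPM. This separation held for 1 of the 41 members and for 3.72% of all genes tested. The libraries split 2 treated tumours and 1 untreated tumour, so they are not replicates of the treatment. Dtx3l, the ubiquitin ligase that works with Parp9, measured 302 CPM untreated and 148 and 109 treated (log2 change -1.23, SE 0.37, edgeR adjusted p = 0.262). Its 8 treated libraries, at 91.2 to 213 and 87.6 to 122 CPM, all lay below the untreated ones at 277 to 336. Stat2 and Ifi203 showed the same separation, which held for 3 of the 41 members and for 4.35% of all genes. Exons of Dtx3l and Parp9 overlap on opposite strands, so reads of the 2 genes cannot be told apart unless counting used the strand. Parp9 measured 64.9, 67.1 and 81.1 CPM.

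Oas1a (21.1, 57.1 and 35.1 CPM, log2 change 1.09, SE 0.53) and Rtp4, a chaperone of membrane receptors (128, 213 and 184 CPM, log2 change 0.65, SE 0.40), had the next largest positive values. Eif2ak2 (161, 102 and 74.2 CPM, log2 change -0.87, SE 0.38) and Cmpk2 (68.4, 43.6 and 33.0 CPM, log2 change -0.84, SE 0.42) were on the other side. None of these 4 passed edgeR's test, with adjusted p-values of 0.563, 0.694, 0.507 and 0.572.

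The class is a mixture, and the mixture differed between tumours. Clustering it with the members and other interferon genes left out gave 12 clusters. Cluster 10 had 7 neutrophil markers among its defining genes, and 73 of its 84 cells came from tumour 2. Cluster 8, monocyte-like and led by Lcn2 and S100a8, had 114 of its 121 cells from tumour 1. In these clusters 74 and 72 cells carried 3 or more UMIs of markers of a second type. Over the class such cells were 1.23%, 16.7% and 6.62% in the untreated tumour, tumour 1 and tumour 2. Without clusters 8 and 10, a choice made after seeing the data, edgeR called 304 of 7010 genes (4.34%) and 2 members. Epsti1 rose, from 90.5 CPM to 239 and 195 (log2 change 1.29, SE 0.34, adjusted p = 0.00639), beside 2.3% of genes called higher. Dtx3l fell, from 302 CPM to 178 and 112 (log2 change -1.07, SE 0.30, adjusted p = 0.0127), beside 2.04% called lower. Without cluster 10 alone, 74 of 7207 genes (1.03%; 0.416% higher and 0.611% lower) and 0 members were called. Clusters 8 and 10 each came mostly from 1 treated tumour. The spread used by the test is that between the 2 treated tumours, so leaving both clusters out alters that spread. The p-values without them are therefore not comparable with those of the whole class. The summed level without both clusters was 89.7, 85.8 and 84.6 member UMIs per 10,000.

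**Figure D5:**
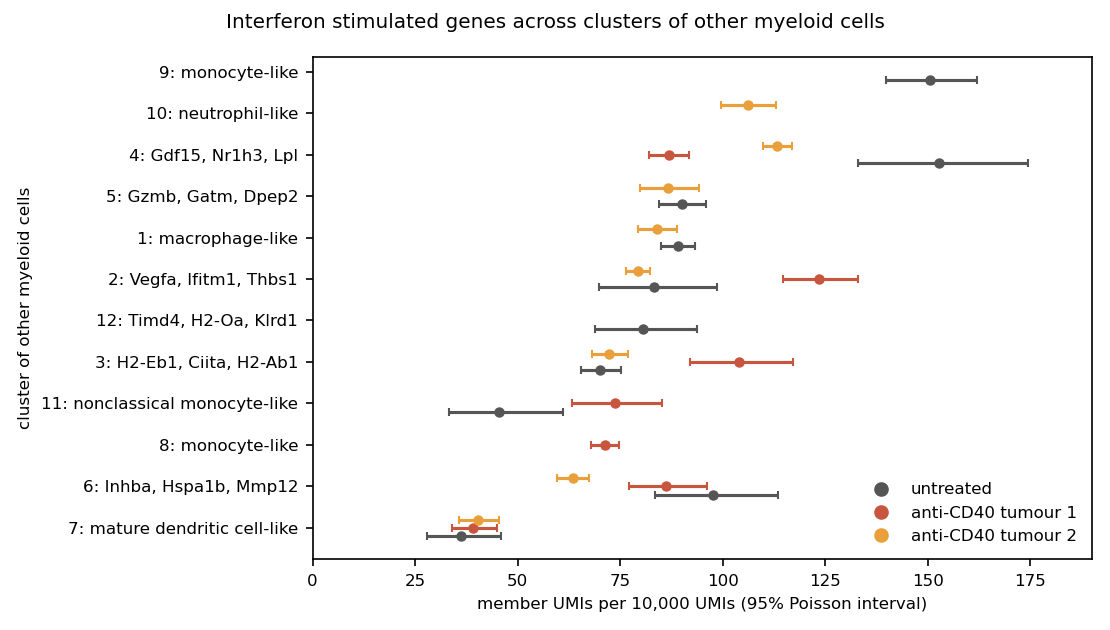
Member UMIs per 10,000 (horizontal axis) in each cluster of other myeloid cells (rows), for each tumour with at least 20 cells there, with 95% Poisson intervals. Cluster 7, mature dendritic cell-like, is lowest at 36.2 to 40.4, and clusters differ in which tumour is highest.

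Member levels differed more between clusters than between tumours in the whole class. With the tumours pooled the highest was cluster 9, monocyte-like with all 7 monocyte markers, at 150 member UMIs per 10,000, and 80 of its 85 cells came from the untreated tumour. In the untreated tumour alone, cluster 9 at 151 and cluster 4 at 153 had overlapping intervals. Cluster 9 held 1943 CPM of Isg15, 1128 of Ifi204 and 898 of Rsad2. Cluster 8, also monocyte-like, stood at 71.6 with the tumours pooled. Cluster 4, led by Gdf15, Nr1h3 and Lpl, stood at 153 untreated and 86.8 and 113 treated. Cluster 3, led by the class II genes H2-Eb1 and H2-Ab1 and their regulator Ciita, stood at 70.2, 104 and 72.3. Of the clusters with at least 20 cells in both tumours compared, tumour 1 was above the untreated tumour in 4 of 6 and tumour 2 in 2 of 7. These values are descriptions of clusters drawn from the same cells.

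Cluster 7, with the mature dendritic cell markers Fscn1, Ccr7 and Ccl22 and also the eYFP reporter, had the lowest member level, 36.2, 39.1 and 40.4 in the 3 tumours. Epsti1 ran against this. In cluster 7 it measured 164 CPM untreated (33.9 to 480, from 3 UMIs), 1027 in tumour 1 (769 to 1343, 53 UMIs) and 1071 in tumour 2 (841 to 1345, 74 UMIs). The ratios to the untreated tumour were 6.25 (2.02 to 31.3) and 6.51 (2.14 to 32.3). Both ratios share the same 3 untreated UMIs, from 45 cells of 1 tumour, so they are not independent. Their intervals cover counting error only, and a treatment effect within this cluster was not tested. Of the 18 members with UMIs there in all 3 tumours, Epsti1 was the 1 whose ratio interval lay above 1 in both treated tumours, against 1.38% of 2898 genes. For 17 members the untreated cluster 7 cells had 0 UMIs, so no ratio was formed. In the rest of the class Epsti1 measured 88.8, 121 and 147 CPM. Cluster 7 was 3.96%, 12.7% and 5.49% of the class and supplied 5.77%, 44.5% and 26.6% of its Epsti1 UMIs.

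Dtx3l was not tied to 1 cluster. It was lower than untreated in 5 of 6 clusters in tumour 1 and in 7 of 7 in tumour 2. Rtp4 was higher in 6 of 6 and 6 of 7, and Eif2ak2 lower in 5 of 6 and 6 of 7. Ifih1 was lower in 4 of 6 and 7 of 7, and Ifi203 in 4 of 6 and 6 of 7. Epsti1 was higher in 3 of 6 and 6 of 7. Isg15 had no shared direction: it was higher in 5 of 6 clusters in tumour 1 and lower in 6 of 7 in tumour 2. Both treated tumours were compared with clusters of the same untreated tumour. No share over all genes is given beside these counts, so they are descriptions of the members named.

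T cells (150, 48 and 135 cells) and NK cells (41, 28 and 128 cells) had fewer members to test. edgeR called 0 of 20 members in T cells, beside 2.09% of 1865 genes tested (1.02% higher and 1.07% lower). It called 0 of 3 in NK cells, beside 1.89% of 794 (1.01% higher and 0.882% lower). DESeq2 called 0 in both. At an unadjusted p under 0.05 edgeR had 2 members in T cells and 0 in NK cells, against 11.2% and 11% of all genes. DESeq2 had 0 in both, against 1.39% and 3.02%. In CPM, both treated tumours were above the untreated one for 6 of the T cell members and below for 9, against 37.1% and 35% of genes tested there. In NK cells these counts were 0 and 2 of 3, against 39.9% and 36%. Ifi27l2a was the leading T cell member, at 3017, 2425 and 1692 CPM (log2 change -0.61, SE 0.23, edgeR adjusted p = 0.197). Isg15 measured 405, 277 and 206 CPM and Lgals3bp 470, 370 and 224 CPM in T cells, lower in both treated tumours without passing the test. Isg20 (431, 254 and 290 CPM) and Bst2 (444, 370 and 280 CPM) lay the same way, and Zbp1 (366, 439 and 383 CPM) did not. Stat2 measured 144, 92.4 and 65.4 CPM. On the upper side were Parp14 (65.3, 92.4 and 140 CPM), Trim30a (183, 300 and 234 CPM) and Slfn1 (118, 185 and 150 CPM).

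Macrophage markers in the T cell class, like its summed member level, were highest in the untreated tumour: 25.1 UMIs per 10,000 untreated and 0.462 and 1.03 treated. The 2 treated tumours were in the opposite order for the markers and for the member level. Without cells that carry markers of a second type the T cell level was 83.3, 73.5 and 59.6, with the tumours in the same order as in all T cells. The part of such cells in the difference between tumours was not tested. Slfn4 and Rsad2, abundant in neutrophils, were near the limit in T cells, at 13.1, 0 and 28.0 CPM and 39.2, 0 and 56.1 CPM. Slfn4 had 0 UMIs in the NK cells of every tumour. The leading NK cell member was Lgals3bp, at 1158, 465 and 720 CPM (log2 change -0.91, SE 0.50, edgeR adjusted p = 0.530). Epsti1 measured 172, 155 and 434 CPM in NK cells and Sp100, a nuclear body protein, 300.2, 155 and 180 CPM. Trim30a (85.8, 258 and 164 CPM), Irf9 (85.8, 155 and 139 CPM) and Ddx58 (42.9, 207 and 115 CPM) were too low to be tested.

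The difference in treatment effect between neutrophils and other myeloid cells was tested in 1 fit with the tumour as a block. It passed for 0 of 41 members, beside 0.0779% of 7700 genes, all of them with the higher effect in neutrophils, with 8 members at an unadjusted p under 0.05, against 5.58% of all genes. DESeq2 was not run on this difference. Ms4a4c and Phf11d, with 0 neutrophil UMIs, are counted among the 41 but could not pass. Ifi44, with 1 neutrophil UMI, had an SE of 10.7 log2 units. The median difference was 1.52 log2 units over the members and 1.83 over all genes, and 0.19 and 0.74 with plain library sizes. Ifi27l2a had the smallest adjusted p, with a difference of 3.41 log2 units (SE 0.97, edgeR adjusted p = 0.263).

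Other genes of the pathway were read from a list of 61, of which Mb21d1, Mx1 and Mx2 had no column in the tables. None of the 17 type I interferon ligand genes had a UMI in any cell, which allows up to 0.757 CPM over all cells, and Ifng had 69. Of the 28, 36, 16 and 9 listed genes tested in neutrophils, other myeloid cells, T cells and NK cells, 1 rose and 0 fell, beside 0.405% of genes called higher in neutrophils. Ifit2, which binds viral RNA and blocks its translation, rose in neutrophils from 0 UMIs to 228 and 67 (320 and 388 CPM, edgeR adjusted p = 0.0431). Against 3 UMIs in the untreated tumour (128 CPM) this is at least 2.5-fold and at least 3.04-fold higher.

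Its relatives did not pass the test. Ifit1 measured 426, 1061 and 921 CPM in neutrophils (log2 change 1.79, SE 0.78, edgeR adjusted p = 0.439) and 128, 36.9 and 77.0 in other myeloid cells. Ifit3 measured 213, 694 and 730 CPM in neutrophils and 200.02, 80.6 and 113 in other myeloid cells. The feedback inhibitor Socs1 measured 682, 89.8 and 110 CPM in neutrophils (log2 change -2.22, SE 0.68, edgeR adjusted p = 0.113). Cxcl10, a chemokine for T cells, measured 500, 123 and 197 CPM in other myeloid cells (log2 change -1.58, SE 0.41, edgeR adjusted p = 0.194). Irf8 had 0 UMIs in neutrophils and measured 695, 421 and 321 CPM in other myeloid cells.

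Across thinned neutrophils, Rsad2 and Isg15, which are among the 3 members with the most UMIs, tended to be found in cells that held other members. The correlation of Rsad2 with the sum of the other members was 0.57, 0.40 and 0.42 in the untreated tumour, tumour 1 and tumour 2, and that of Isg15 was 0.50, 0.39 and 0.45. Of 485 genes outside the list that were detected often enough, Ifit1 had the highest mean correlation with the member sum over the 3 tumours (0.37), followed by Ifi47 (0.29) and Gbp2 (0.22). These are descriptions over cells that share a library and a fixed depth of 300 UMIs. In other myeloid cells the highest mean correlation of a gene outside the list was 0.14, that of Grn.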

How the data were processed

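UMI counts per cell and gene were deposited by the authors as whole numbers, not normalized, with 1 table for each of the 4 pools. Reads were handled with bcl2fastq and STAR on GRCm38, per the submitters' processing notes; their versions, the annotation and the counting settings are not stated there. Tumour, library and cell class came from the authors' deposited table of names per cell, and no cell was removed. Doublets were not called; cells with at least 3 UMIs of markers of a second type were counted and left out in an alternative. The 41 members and all marker and pathway lists were chosen with earlier results of these data known.

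Counts were summed per tumour and class (4 libraries each tumour) and tested by a robust quasi-likelihood fit of edgeR (version 4.0.16, run in R 4.3.3) after filterByExpr and TMM scaling, with Benjamini-Hochberg adjustment over every gene tested. DESeq2 1.42.0 was an alternative. On simulated counts with 200 genes changed 8-fold, edgeR recovered 83.5%, 74.5%, 73.5% and 75% of them in neutrophils, other myeloid cells, T cells and NK cells. The changed genes were drawn from those with more expected UMIs. The spread set between tumours was below the common dispersion fitted in neutrophils (0.108), other myeloid cells (0.0634) and NK cells (0.0764). These shares therefore do not tell how often a smaller change, or a change of a member with few UMIs, would be found. The filter on low counts left 35, 41, 20 and 3 members to test. Summed levels carry exact Poisson intervals at 95%, and a count of 0 was set to 3 UMIs for bounds. Cells were thinned once to 300 UMIs. Other myeloid cells were clustered in scanpy 1.11.5 (Python 3.11.15; 1500 variable genes, 20 components, resolution 1). Named in each class were the 6 members with the most UMIs and the 3 with the largest log2 change in each direction among those with both treated tumours on the same side, plus any past the threshold; members described by class, role, library, subset or cluster beyond these were chosen after their values were seen. B cells (20, 2 and 5 cells) and rarer classes were not tested. Values of 1 gene of the pathway list are not reported here.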

Additional observations from a re-analysis of the deposited data

How the results depend on the processing

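No member passed the threshold in any class under 44 of 45 alternative settings; the exception was other myeloid cells without clusters 8 and 10, with 2 members and 304 genes. Counts over all genes moved more. In neutrophils, 12 genes became 7 without a filter on low counts, 7 after thinning, 2 without subsets N1a and N1b, and 3 (without pool 1) to 25 (without pool 2) when each pool was left out. In other myeloid cells, 29 became 12 with DESeq2, 89 with plain library size, 141 without the filter, 56 after thinning, 51 without second-type cells, 74 without cluster 10 and 1 (without pool 2) to 27 (without pool 1). In T cells, 39 became 3 with DESeq2, 18 after thinning and 19 (without pool 2) to 32 (without pool 3). In NK cells, 15 became 1 with DESeq2, 8 without the filter, 1 after thinning and 1 (without pool 2) to 16 (without pool 3). The 6 genes that differed in effect between neutrophils and other myeloid cells became 0 (without pool 4) to 28 (without pool 2). Thinning also left fewer genes to test in each class. So did leaving out a pool, except pools 3 and 4 in other myeloid cells and NK cells. The cause of the shifts was not tested.

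The ratio of neutrophils to other myeloid cells stayed above 1 under all settings run. It was 1.57, 1.91 and 1.44 without Isg15, Rsad2 and Slfn4, the 3 members with the most UMIs, and 2.68 in tumour 1 without second-type cells. Over pools it was 2.46 to 2.48, 2.79 to 2.81 and 2.51 to 2.54. The excess of neutrophils in cells with 3 or more member UMIs was 30.3, 43.0 and 30.3 percentage points. In the untreated tumour it was 21.4 thinned to 400 UMIs, 16.5 at 2 or more, 44.6 at 5 or more and 19.98 without thinning; tumour 1 gave 27.7 at 2 or more and 15.2 without thinning, and tumour 2 gave 20.4 and 6.07. The highest cluster over the pooled tumours, monocyte-like, stood at 150. With resolution 0.5 the highest was a neutrophil-like cluster at 114, and the monocyte-like cluster stood at 83.5. No paired analysis was possible because the replicate is the tumour, and the shared pools 1 and 2 hold libraries of the same untreated tumour and the same tumour 1. Within those pools other myeloid cells stood at 90.9 against 80.1 and 90.8 against 80.0 member UMIs per 10,000, untreated first, and neutrophils at 225 against 225 and 223 against 223. Depth limits the untreated neutrophils most: 49 cells, with 1 UMI at 42.6 CPM.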
